A study of Homo sapiens with 6 samples.

Results

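The 10 genes described here encode proteins on the surface of acute myeloid leukaemia cells that antibodies, antibody-drug conjugates or engineered T cells have been directed against. They are CD33, CLEC12A, IL3RA, CD47, HAVCR2, CD70, CD38, CD44, CD99 and ADGRE2. They were chosen by name, as the rows of the count table whose Ensembl ID carries these symbols. No value entered that rule, but the list was drawn up with earlier results of these data known. All 10 were found among the 23227 genes of the table, and all 10 passed the filter on low counts that left 14635 genes for testing.

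RNA was sequenced from 6 libraries of MV4-11, an established human acute myeloid leukaemia line with monocytic features that carries the KMT2A-AFF1 fusion and a duplication within FLT3. The control group comprised 3 libraries of these cells, with the genotype given as WT and the treatment as none. Their titles carry the letters NC, which are not explained, and whether a control hairpin was present is not given. The ENO1 knockdown group comprised 3 libraries of the same line and genotype in which a short hairpin reduced ENO1, which encodes alpha-enolase of glycolysis. The count columns of that group name 1 hairpin, sh2, so loss of ENO1 and any other effect of that hairpin cannot be told apart. The comparison addressed how gene expression in these cells differs between the presence and the near absence of ENO1. The time after knockdown is not given, and neither is whether replicates are separate cultures. The p-values therefore reflect no more than the variation among these 6 libraries, part or all of which may be technical.

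Library totals ran from 20044602 to 26373960 counts. ENO1 was at 3262 ± 22.6 CPM (counts per 1000000 of the TMM-scaled library size) in the controls, against 102.1 ± 1.25 CPM in the knockdown group (SD, n = 3), with no overlap. Control replicate 2 and knockdown replicate 3 stood apart somewhat from the others of their groups, where the chi-square over its degrees of freedom was 2.82 to 4.15 for pairs that include them and 2.09 and 2.28 for the others. Mitochondrially encoded genes took 6.69 to 6.88% of the counts in the controls and 9.27 to 9.69% in the knockdown libraries, and the part of this difference in the results was not tested. The myeloid leukaemia markers PTPRC, SPI1, CEBPA, FLT3, MPO, LYZ, HOXA9 and MEIS1 were all detected in both groups. Of these 8, 3 were higher in the knockdown group, 4 lower and 1 did not pass (edgeR adjusted p below 0.05). By the same rule 29.4% of all genes tested were higher and 30.5% lower. MPO fell from 22.4 to 3.66 CPM and LYZ from 274 to 51.4 CPM, while PTPRC rose from 88.0 to 188 CPM. CEBPA, LYZ and HOXA9 share 22.4 to 37.1% of their 50-base stretches with transcripts of other genes, so their counts are uncertain. Several of the 10 genes are also lymphoid genes. Of 4 T cell markers, 3 were in the table (CD3E, CD3G and CD2). They had no count in a control library and a summed level of 0.0908 to 0.279 CPM in the knockdown libraries. The summed level of 5 B cell markers was 3.94 to 5.04 CPM in the controls, against 6.31 to 7.16 CPM in the knockdown group, that of 4 natural killer cell markers 47.8 to 52.4 and 44.7 to 48.6 CPM, and that of 4 epithelial or fibroblast markers 18.4 to 20.1 and 45.0 to 48.3 CPM. None of 4 erythroid markers was among the genes of the table. The rise of the last group was in KRT8 and KRT18, whose counts are uncertain, and EPCAM and COL1A1 were too low to test. The part of the myeloid marker, B cell and epithelial differences in the results was not tested. In libraries from bulk cells, fewer cells of a type and less RNA per cell cannot be told apart.

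These surface proteins do different work. CD33, which binds sialic acid, and CLEC12A, a C-type lectin, are inhibitory receptors of myeloid cells whose cytoplasmic tyrosine motifs (ITIMs) recruit the phosphatases SHP-1 and SHP-2. IL3RA, also called CD123, is the ligand-binding chain of the interleukin-3 receptor and signals with the shared beta chain CSF2RB through JAK2 and STAT5. CD47 binds SIRPA on phagocytes and restrains engulfment, HAVCR2 (TIM-3) is a checkpoint receptor that binds galectin-9, and CD70 is a TNF-family ligand of CD27. CD38 is an ectoenzyme that breaks down NAD. CD44 binds hyaluronan, CD99 is a small glycoprotein of leukocyte adhesion and migration, and ADGRE2 (CD312) is an adhesion G protein-coupled receptor of myeloid cells. The values are levels of mRNA summed over all transcripts of a gene, and neither protein on the cell surface nor splice forms were measured.

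Of the 10 genes, 8 were higher in the knockdown group, 1 was lower and 1 did not pass the test (edgeR quasi-likelihood test, adjusted p below 0.05 over all genes tested). Among all genes tested, 29.4% were higher and 30.5% lower by the same rule, and 59.9% were called in either direction. The median log2 fold change of the 10 genes was 0.37, against 0.0043 over all genes tested. Of the 8 rises 7 were under 2-fold, as were 3356 of the 4309 among all genes tested. The 3 knockdown libraries lay above the 3 controls for 8 of the 10 genes, where this held for 31.8% of all genes tested, and below them for 1, where it held for 32.5%. CD70, CLEC12A, HAVCR2 and CD38 were at low levels and carry wide errors, and the other 6 were well expressed.

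**Figure D1:**
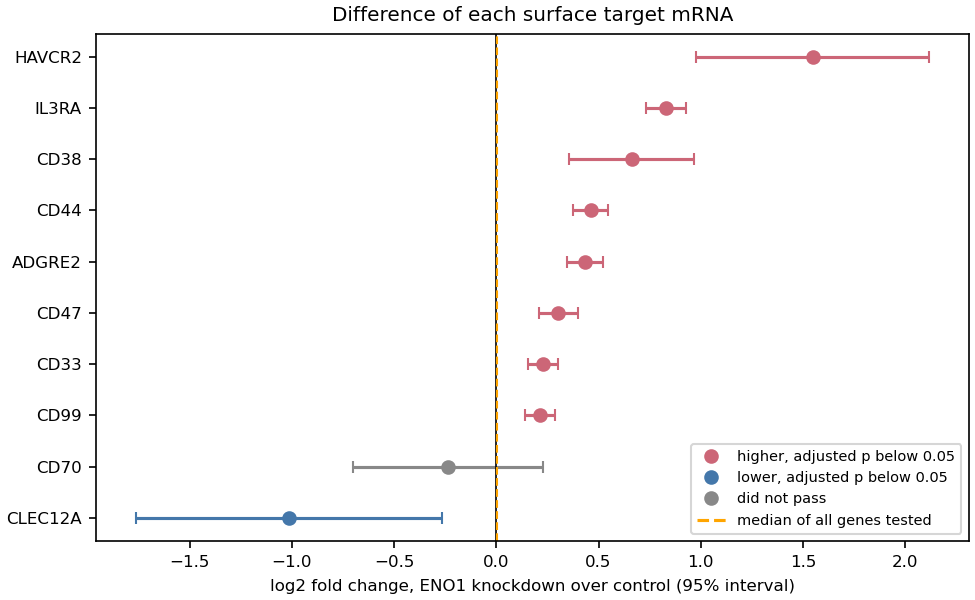
Log2 fold change of each of the 10 surface target mRNAs, ENO1 knockdown over control, with its 95% interval; the dashed line is the median of all genes tested. IL3RA and the other well-expressed genes have narrow intervals above 0, HAVCR2 and CLEC12A have the widest, and the interval of CD70 spans 0.

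The promoter table used here, from RefSeq on GRCh38.p14, held 7 of the 10 genes, CD33, CLEC12A, IL3RA, CD47, CD38, CD44 and CD99. The other members are CD70, HAVCR2 and ADGRE2. The 250 bases before the RefSeq start are printed for 5 genes, 5′ to 3′ on the gene's strand. They were chosen to set the largest rises with a sequence (IL3RA and CD38) and the 1 fall (CLEC12A) beside smaller rises (CD47 and CD99). Capitals mark matches to the motifs searched, on either strand: the interferon response element ISRE (GAAA, any 2 bases, then GAAA), the GAS element bound by STAT dimers (TTCNNNGAA), the E-box (CACGTG), a site of the myeloid factor PU.1 (GAGGAAGT), the CAAT box (letters CCAAT), the TATA box (letters TATAAA) and the GC box (letters GGGCGG). Matches to the GC box can overlap each other.
IL3RA, chrX:1336535-1336784, plus strand: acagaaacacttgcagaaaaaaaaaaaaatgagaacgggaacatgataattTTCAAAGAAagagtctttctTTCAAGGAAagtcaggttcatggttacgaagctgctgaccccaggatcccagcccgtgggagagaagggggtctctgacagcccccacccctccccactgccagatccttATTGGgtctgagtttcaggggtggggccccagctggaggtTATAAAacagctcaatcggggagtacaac
CD38, chr4:15778078-15778327, plus strand: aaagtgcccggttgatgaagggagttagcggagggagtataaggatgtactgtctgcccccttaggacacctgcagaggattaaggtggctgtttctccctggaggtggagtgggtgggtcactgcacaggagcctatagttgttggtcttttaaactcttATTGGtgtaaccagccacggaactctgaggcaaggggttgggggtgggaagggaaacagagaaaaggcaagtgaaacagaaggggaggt
CLEC12A, chr12:9971159-9971408, plus strand: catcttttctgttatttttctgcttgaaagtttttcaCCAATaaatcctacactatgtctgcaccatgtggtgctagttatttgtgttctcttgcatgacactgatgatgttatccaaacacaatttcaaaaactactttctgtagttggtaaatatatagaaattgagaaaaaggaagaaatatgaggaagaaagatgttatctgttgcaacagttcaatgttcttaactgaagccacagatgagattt
CD47, chr3:108091032-108091281, minus strand: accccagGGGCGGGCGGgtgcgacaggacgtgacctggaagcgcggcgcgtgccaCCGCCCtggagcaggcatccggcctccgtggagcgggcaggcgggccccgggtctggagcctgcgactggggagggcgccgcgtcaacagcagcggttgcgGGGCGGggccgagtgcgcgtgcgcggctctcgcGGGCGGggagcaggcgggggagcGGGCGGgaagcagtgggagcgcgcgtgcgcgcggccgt
CD99, chrX:2691045-2691294, plus strand: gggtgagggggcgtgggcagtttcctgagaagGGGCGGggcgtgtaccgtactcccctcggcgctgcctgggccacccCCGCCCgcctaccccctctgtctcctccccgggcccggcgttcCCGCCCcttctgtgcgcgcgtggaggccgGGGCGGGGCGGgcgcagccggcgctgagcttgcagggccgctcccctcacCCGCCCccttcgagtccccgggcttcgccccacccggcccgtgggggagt

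The printed windows differ in base composition. The window of CLEC12A was 32.8% G and C with 0 CpG, that of IL3RA 49.6% with 4 and that of CD38 52.4% with 3. Those of CD47 and CD99 were 79.6% with 39 and 78.0% with 28. Of the windows not printed, that of CD33, also a small rise, was 58.8% with 2 and that of CD44 62.4% with 15. The median over 27195 promoters was 58.0% with 11. GC boxes were found in CD33, CD44, CD47 and CD99 and occur in 42.4% of all promoters of this length. The GAS letters were matched 2 times in IL3RA, 199 and 179 bases before the start, and occur in 6.79% of all promoters. TATAAA was found in IL3RA (11.1% of all promoters) and CCAAT in IL3RA, CD38 and CLEC12A (33.0%). None of the 7 windows held the ISRE (3.07%), PU.1 (2.13%) or E-box (6.5%) letters. A match is a description of the letters and not a binding site. The RefSeq start can differ from the GENCODE start of a gene. By the GENCODE positions given below, the windows of CLEC12A, CD47 and CD44 lie inside the gene, and the others extend past its start into it. IL3RA and CD99 lie in the pseudoautosomal region shared by the X and Y chromosomes, and how reads that fit both copies were counted is not given.

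CD33 (ENSG00000105383, GRCh38 chromosome 19, 51225064 to 51243860, plus strand) was among the most abundant of the 10 and differed little. Its levels were 123.5, 131.1 and 123.5 CPM in control replicates 1, 2 and 3 and 145.9, 145.9 and 151.3 CPM in knockdown replicates 1, 2 and 3. All knockdown libraries were above all controls, with control replicate 2 nearest to them. The log2 fold change was 0.23 (standard error 0.037), a rise of 17.2% (edgeR adjusted p = 5.05e-06).

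CLEC12A (ENSG00000172322, chromosome 12, 9951316 to 9995694, plus strand) was the only one of the 10 genes that fell, and its level was low in both groups. Its control libraries held 42, 25 and 33 counts, the knockdown libraries 20, 6 and 16. The levels were 1.62, 1.03 and 1.35 CPM against 0.930, 0.272 and 0.787 CPM, so that the groups did not overlap but knockdown replicate 2 was far below the rest. Its log2 fold change was -1.01 (standard error 0.36; edgeR adjusted p = 0.0184), and the ratio of the summed levels was 0.491 (95% exact interval 0.334 to 0.711, counting error only). The call was lost without control replicate 1 (log2 fold change -0.85, edgeR adjusted p = 0.0952) and without knockdown replicate 2 (-0.63, edgeR adjusted p = 0.131).

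The genes of the machinery that both receptors signal through changed in both directions. Of 13 listed ITIM phosphatases and Src-family kinases with their regulators, 6 rose and 5 fell. Among all genes tested, 29.4% rose and 30.5% fell. The median log2 fold change of the list was 0.16. PTPN6, which encodes SHP-1, rose from 579 ± 8.01 to 773 ± 28.0 CPM (SD, n = 3), or by 0.42 on the log2 scale. PTPN11, which encodes SHP-2 (chosen after its value was seen), fell from 244 ± 4.13 to 184 ± 6.59 CPM. The ratio of PTPN6 to PTPN11 counts within a library was 2.37 ± 0.0446 in the controls and 4.20 ± 0.297 in the knockdown group (SD, n = 3). That ratio does not depend on scaling. Its groups did not overlap, and the two-sided exact permutation p of 0.1 is the smallest that 3 libraries against 3 can give. The pair was taken after its genes were seen to move apart, so this p adds no support. The lipid phosphatase gene INPPL1 and the kinase gene SYK rose by 0.42 and 0.67 on the log2 scale, and the Src-family kinase gene FGR fell from 16.1 ± 0.688 to 4.49 ± 0.823 CPM (SD, n = 3).

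Among 13 other members of the Siglec family, to which CD33 belongs, 10 were tested, 6 rose and 2 fell. The shares over all genes tested were 29.4% and 30.5%. The median log2 fold change of the family was 0.66. SIGLEC1, the macrophage receptor sialoadhesin, rose from 5.58 ± 0.358 to 45.7 ± 2.27 CPM (SD, n = 3; log2 fold change 3.04, edgeR adjusted p = 6.07e-22). SIGLEC12 had a higher control level and fell from 38.3 ± 2.14 to 27.6 ± 0.463 CPM. SIGLEC15 rose from 0.162 to 0.851 CPM, but it passed the filter on low counts through the knockdown libraries alone, so its call adds no support. SIGLEC14 rose by 0.69 on the log2 scale. It shares 33.2% of its 50-base stretches with transcripts of other genes, mainly SIGLEC5, so its counts are uncertain. Also uncertain are SIGLEC5 and SIGLEC16, which rose, SIGLEC10, which fell, and SIGLEC7 and SIGLEC11, which did not pass. They share 19.5 to 100% of their stretches and were named after their values were seen. Of 14 genes that make or attach sialic acid, 13 were tested, 3 rose and 5 fell, with a median of -0.09. The sialyltransferase genes ST3GAL1 and ST3GAL5 rose by 0.34 and 1.41 on the log2 scale, and ST3GAL4 and ST6GAL1 had log2 fold changes of -0.68 and -0.65. Of 14 C-type lectin genes of the natural killer complex, the neighbourhood of CLEC12A, only CLEC2D passed the filter on low counts, and it rose from 19.6 ± 1.58 to 43.4 ± 2.73 CPM (SD, n = 3). CLEC2D shares 12.8% of its stretches with other transcripts and is therefore uncertain.

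**Figure D2:**
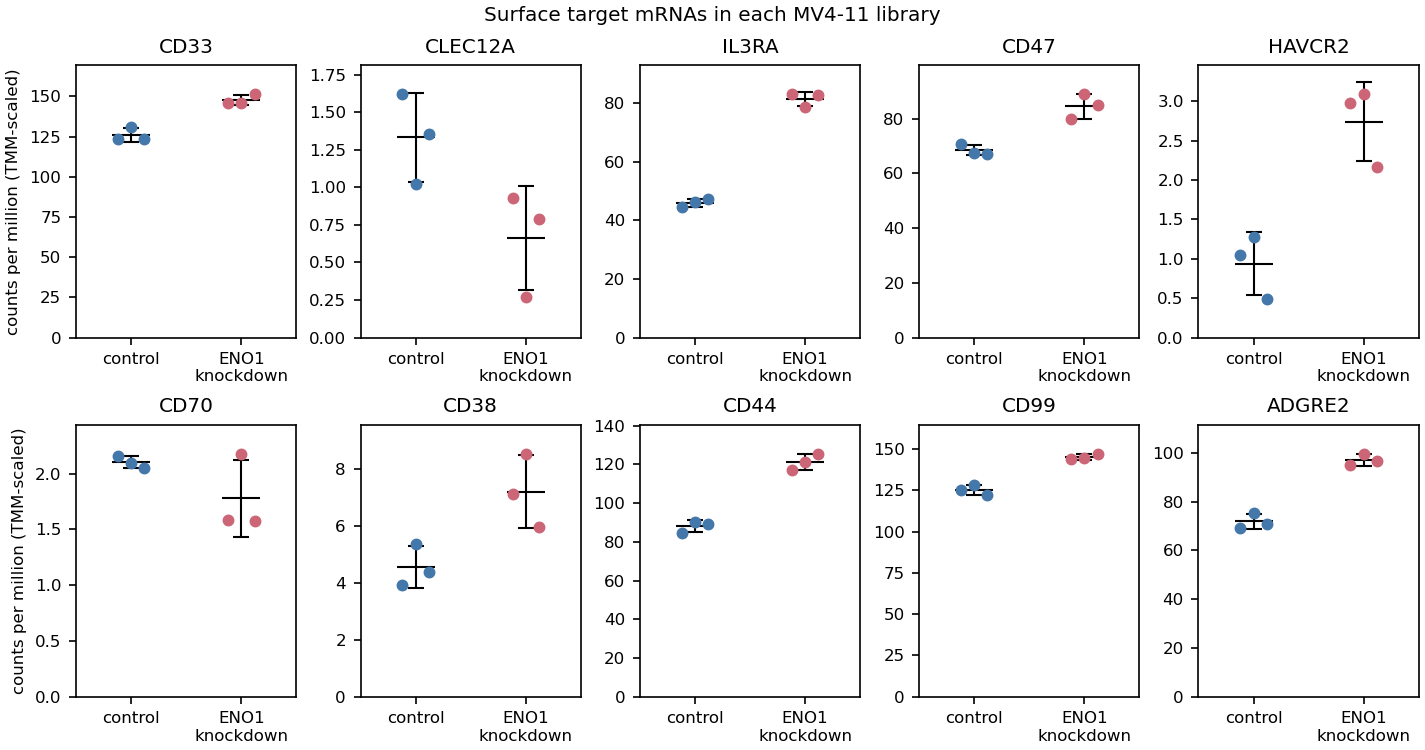
Level of each surface target mRNA (CPM on TMM-scaled library sizes, axes from 0) in the 3 control and 3 ENO1 knockdown libraries, 1 point per library, with the mean and SD. The knockdown points lie above the controls for 8 genes and below them for CLEC12A, and they overlap for CD70.

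IL3RA (ENSG00000185291, chromosome X, 1336616 to 1382689, plus strand) showed the clearest rise. Its levels were 44.4, 46.1 and 47.1 CPM in the controls, against 83.0, 78.8 and 82.9 CPM in the knockdown libraries. The groups were far apart, and the libraries within each group lay close together, with a coefficient of variation of 3.04 and 2.95%. The log2 fold change was 0.83 (standard error 0.047), a rise of 77.8% (edgeR adjusted p = 1.31e-14), which was above 91.0% of all genes tested.

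Other chains of the interleukin-3 receptor family did not move alike. CSF2RB, the signalling beta chain, which was named after its value was seen, fell from 61.8 ± 1.91 to 50.2 ± 2.15 CPM (SD, n = 3; log2 fold change -0.30, edgeR adjusted p = 8.15e-06). The ratio of IL3RA to CSF2RB counts was 0.715, 0.724 and 0.788 for controls, against 1.62, 1.52 and 1.74 after knockdown. It was above 1 in every knockdown library and below 1 in every control, although a ratio of counts also reflects the lengths of the transcripts. The exact permutation p was 0.1, the smallest possible, and adds no support, since the pair was chosen after the data were seen. CSF2RA, the alpha chain of the GM-CSF receptor, which lies next to IL3RA in the pseudoautosomal region, rose from 21.9 ± 1.02 to 27.4 ± 2.04 CPM (SD, n = 3). Of 11 listed genes of this receptor family and its JAK-STAT5 arm, 7 were tested, 3 rose and 4 fell, with a median of -0.14. Over all genes tested, 29.4% rose and 30.5% fell. The kinase gene JAK2 rose from 21.7 ± 0.257 to 39.6 ± 1.29 CPM (SD, n = 3). The transcription factor genes STAT5A and STAT5B had log2 fold changes of 0.56 and -0.33. PIM1, a kinase gene known as a target of STAT5, fell from 315 ± 4.03 to 215 ± 2.05 CPM (SD, n = 3). The ligand gene IL3 was not among the genes of the table.

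CD47 (ENSG00000196776, chromosome 3, 108043094 to 108091862, minus strand) rose modestly. Its levels were 70.8, 67.6 and 67.3 CPM in the controls, against 79.9, 88.9 and 85.0 CPM in the knockdown libraries. The groups did not overlap, with knockdown replicate 1 nearest to the controls. Its log2 fold change was 0.30 (standard error 0.046; edgeR adjusted p = 2.26e-06).

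Genes around CD47 mostly went the other way. Of 9 listed genes of the SIRP family and the CD47 axis, 8 were tested, 6 fell and 1 rose. Of all genes tested, 30.5% fell and 29.4% rose. The median log2 fold change of the list was -0.38. SIRPA, the receptor for CD47, fell from 207 ± 2.15 to 134 ± 6.00 CPM (SD, n = 3). It shares 15.1% of its stretches with other genes, mainly SIRPB1, so its counts are uncertain. SIRPB2 fell from 15.2 ± 0.974 to 2.42 ± 0.0679 CPM and LRP1, an uptake receptor of phagocytes, from 17.5 ± 0.624 to 6.93 ± 0.195 CPM (SD, n = 3). CALR, which encodes calreticulin, a signal for engulfment when on the surface, had a log2 fold change of -0.35. The 1 gene that rose was THBS1, which encodes thrombospondin-1, another ligand of CD47, with 42 counts over the controls and 194 over the knockdown libraries. It was named after its value was seen. The ratio of CD47 to SIRPA counts was 0.331 ± 0.0117 in the controls and 0.634 ± 0.0504 in the knockdown group (SD, n = 3). The pair was chosen after both genes were seen to differ, so the exact permutation p of 0.1 adds no support.

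**Figure D3:**
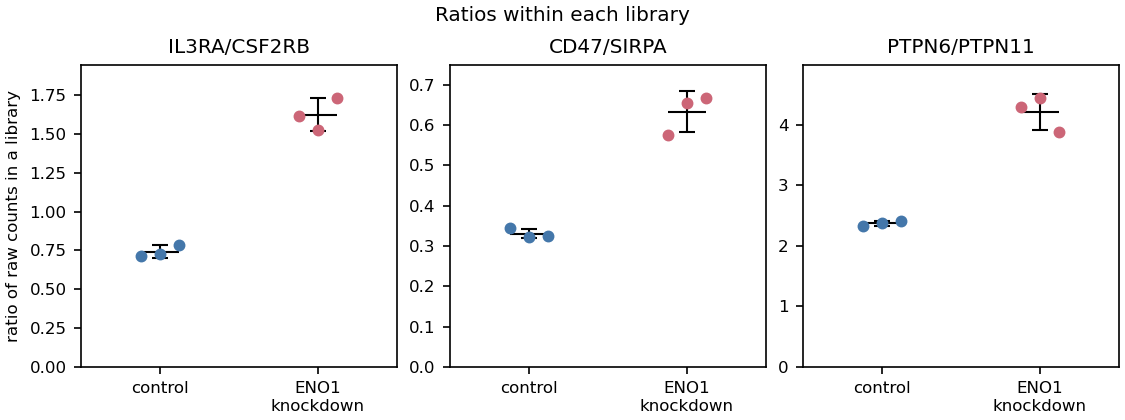
Ratio of raw counts of 2 genes within each library (axes from 0) for IL3RA over CSF2RB, CD47 over SIRPA and PTPN6 over PTPN11, with 1 point per library and the mean and SD of each group. The pairs were chosen after the data were seen, and in all 3 panels the knockdown points lie above the control points without overlap. A ratio of counts also reflects transcript lengths, so only the difference between groups is shown.

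HAVCR2 (ENSG00000135077, chromosome 5, 157085832 to 157142869, minus strand) had the largest fold rise of the 10, at a low level. It had 27, 31 and 12 counts in the controls, with 64, 68 and 44 in the knockdown libraries, or 1.04, 1.27 and 0.492 CPM against 2.97, 3.09 and 2.16 CPM. Every knockdown library was above every control. The log2 fold change was 1.55 (standard error 0.28; edgeR adjusted p = 2.50e-05), and the ratio of the summed levels was 2.94 (95% exact interval 2.22 to 3.94, counting error only). LGALS9, which encodes its ligand galectin-9, rose from 196 ± 3.45 to 289 ± 17.0 CPM (SD, n = 3), although 13.2% of its stretches are shared with near copies and it is uncertain. HMGB1, another ligand, had a log2 fold change of -0.35 and is uncertain for the same reason, with 10.9% shared. BAG6, the adaptor known to bind the tail of HAVCR2, had a log2 fold change of -0.09 (edgeR adjusted p = 0.0101) and did not pass with upper-quartile scaling (0.137), plain library size (0.297) or the 5 CPM filter (0.119), or without control replicate 3 (0.0633). MED7 overlaps HAVCR2 by 50 exon bases and did not pass (edgeR adjusted p = 0.425).

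CD70 (ENSG00000125726, chromosome 19, 6583183 to 6604103, minus strand) did not pass the test. It had 56, 51 and 50 counts in the controls, with 34, 48 and 32 in the knockdown libraries, or 2.16, 2.09 and 2.05 CPM against 1.58, 2.18 and 1.57 CPM. Knockdown replicate 2 lay above all controls and the other knockdown libraries below them. Its log2 fold change was -0.24 with a 95% interval of -0.70 to 0.23 (edgeR adjusted p = 0.381), so changes from a fall by 0.70 to a rise of 0.23 could not be separated at this depth. CD27, its receptor, was too low to be tested, with 12 counts over the controls and 17 over the knockdown libraries. Of the 6 genes listed for CD27 and its adaptors, 4 were tested. BIRC2 and BIRC3, which encode the inhibitors of apoptosis that bind TRAF2, rose by 0.91 and 3.27 on the log2 scale, BIRC3 from 0.109 to 1.09 CPM. BIRC3 passed the filter on low counts through the knockdown libraries alone, so its call adds no support. The adaptor genes SIVA1 and TRAF2 fell, with log2 fold changes of -0.51 and -0.19, and TRAF2 did not pass without control replicate 2 (edgeR adjusted p = 0.0679).

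CD38 (ENSG00000004468, chromosome 4, 15778275 to 15853230, plus strand) rose from a low level. It had 102, 131 and 107 counts in the controls, with 153, 188 and 121 in the knockdown libraries, or 3.93, 5.37 and 4.39 CPM against 7.11, 8.53 and 5.95 CPM. The groups did not overlap, but control replicate 2 came near to knockdown replicate 3. The log2 fold change was 0.66 (standard error 0.15; edgeR adjusted p = 3.85e-04) and ran from 0.52 to 0.79 when single libraries were left out. BST1 (CD157), the paralog next to CD38 and also a NAD-cleaving ectoenzyme, went the other way, from 3.18 ± 0.737 to 1.96 ± 0.519 CPM (SD, n = 3; log2 fold change -0.68, edgeR adjusted p = 0.0104). The groups of BST1 overlapped, and it did not pass without control replicate 2 or without knockdown replicate 1 (edgeR adjusted p = 0.0772 and 0.0612).

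Of 14 listed genes of NAD turnover, 10 were tested, 5 rose and 4 fell, where 29.4% of all genes tested rose and 30.5% fell. The median log2 fold change of the list was 0.23. QPRT, which makes the NAD precursor nicotinic acid mononucleotide, rose from 57.2 ± 1.79 to 80.7 ± 0.516 CPM (SD, n = 3). NAMPT and NMNAT1, of the salvage route, rose by 0.28 and 0.38 on the log2 scale, and SARM1, an intracellular NAD hydrolase, rose from 0.709 to 1.79 CPM. All of QPRT, NAMPT, NMNAT1 and SARM1 share 11.7 to 42.4% of their stretches with transcripts of other genes and are uncertain.

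CD44 (ENSG00000026508, chromosome 11, 35138870 to 35232402, plus strand) was higher in every knockdown library than in every control. Its levels were 84.5, 90.3 and 89.4 CPM in the controls, against 116.9, 121.2 and 125.5 CPM in the knockdown libraries. Its log2 fold change was 0.46 (standard error 0.041), a rise of 37.6% (edgeR adjusted p = 1.56e-10). GENCODE lists 39 transcripts of this gene, so a change between its standard and variant forms would not be seen in these counts.

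Genes that make hyaluronan, cut CD44 or tie it to the cytoskeleton were split. Of 16 listed, 12 were tested, 4 rose and 6 fell, with a median of -0.20. Of all genes tested, 29.4% rose and 30.5% fell. ADAM10, a protease that sheds CD44, fell from 171 ± 3.82 to 117 ± 1.70 CPM (SD, n = 3). Of the linkers to actin, moesin (MSN) fell from 1679 ± 13.5 to 1348 ± 6.88 CPM (SD, n = 3) and ezrin (EZR) had a log2 fold change of -0.38, while radixin (RDX), chosen after its value was seen, rose from 39.7 to 53.6 CPM. HMMR, a further hyaluronan-binding gene that also serves the mitotic spindle, had a log2 fold change of -0.46.

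CD99 (ENSG00000002586, chromosome X, 2691133 to 2741309, plus strand) had a small rise, close to that of CD33. Its levels were 124.9, 128.2 and 122.1 CPM in the controls, against 143.7, 144.3 and 147.1 CPM in the knockdown libraries. The groups did not overlap, and the log2 fold change was 0.21 (standard error 0.035), a rise of 15.9% (edgeR adjusted p = 8.85e-06). Its relative CD99L2 fell from 75.4 ± 1.24 to 63.3 ± 2.17 CPM (SD, n = 3), and PECAM1, which acts with CD99 when leukocytes cross vessel walls, from 93.9 ± 0.726 to 66.4 ± 1.71 CPM (SD, n = 3). PILRA, a receptor known to bind CD99, had overlapping groups and an edgeR adjusted p of 0.0472, and it did not pass without control replicate 2 or 3 (0.177 and 0.220) or without knockdown replicate 1 or 2 (0.160 and 0.0999). On all libraries it was also lost with upper-quartile scaling, plain library size, DESeq2 and limma-voom (adjusted p = 0.0686, 0.0775, 0.0927 and 0.0938).

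ADGRE2 (ENSG00000127507, chromosome 19, 14732393 to 14778541, minus strand) rose by an amount close to that of CD44. Its levels were 69.3, 75.2 and 71.0 CPM in the controls, against 94.8, 99.6 and 96.7 CPM in the knockdown libraries, with no overlap. The log2 fold change was 0.43 (standard error 0.043; edgeR adjusted p = 1.46e-09). Its counts are uncertain, since 22.9% of its stretches also occur in other transcripts, mainly of the overlapping gene ZNF333 and of its paralog ADGRE5. ZNF333 runs on the opposite strand and covers 15.7% of the exon bases of ADGRE2, and the strand setting of the counts is not given. ZNF333 did not pass (log2 fold change 0.08, edgeR adjusted p = 0.271), and ADGRE5, itself uncertain, rose by 0.23. The ratio of ADGRE2 to ZNF333 counts was 2.42 ± 0.0542 in the controls and 3.10 ± 0.0913 in the knockdown group, and that of ADGRE2 to ADGRE5 was 0.323 ± 0.0165 and 0.372 ± 0.0174 (SD, n = 3), with an exact permutation p of 0.1 for each. Those pairs were also chosen after the data were seen, so this p adds no support. CD55, the ligand of ADGRE5, fell from 11.8 ± 0.685 to 8.22 ± 0.841 CPM (SD, n = 3).

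**Figure D4:**
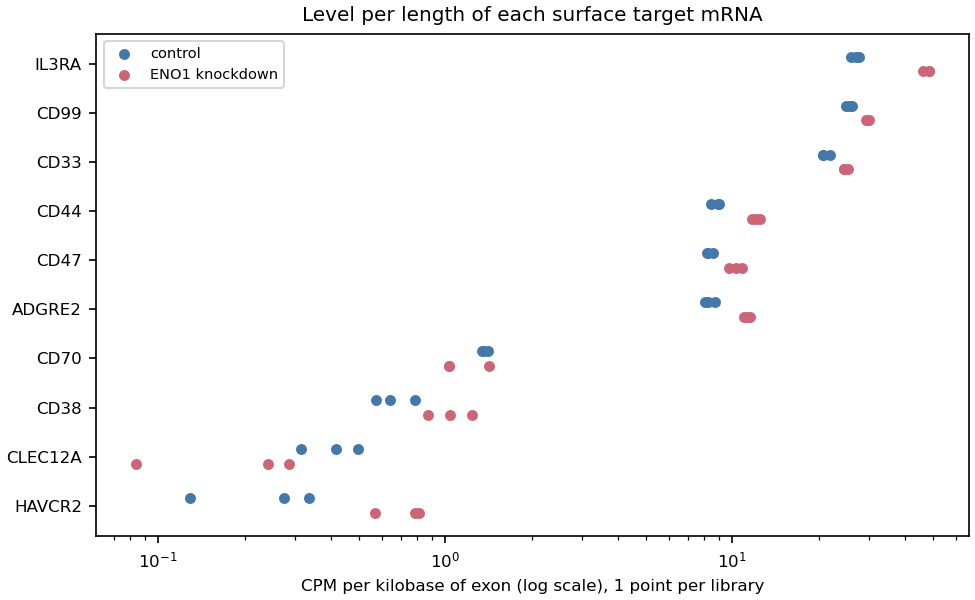
Level of each of the 10 genes as CPM per kilobase of exon (log scale), 1 point per library, in the order of the control means. IL3RA, CD99 and CD33 stand highest, from 21.1 to 26.8 in the controls, and HAVCR2 and CLEC12A lowest, at 0.246 and 0.410.

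Levels were compared between genes as CPM per kilobase of exon, the union of all annotated exons. In the controls IL3RA stood at 26.8 ± 0.814, CD99 at 25.5 ± 0.629 and CD33 at 21.1 ± 0.731 (SD, n = 3). A middle group followed, with CD44 at 8.80 ± 0.315, CD47 at 8.33 ± 0.236 and ADGRE2 at 8.33 ± 0.348. CD70 was at 1.37 ± 0.0356, CD38 at 0.666 ± 0.107, CLEC12A at 0.410 ± 0.0917 and HAVCR2 at 0.246 ± 0.105. The libraries of IL3RA and CD99, of CD44 and CD47, of CD47 and ADGRE2, and of CLEC12A and HAVCR2 overlapped, so the order within those pairs is not resolved. In the knockdown group IL3RA at 47.7 ± 1.41 lay clear of CD99 at 29.5 ± 0.375 (SD, n = 3). HAVCR2 at 0.721 ± 0.132 lay above CLEC12A at 0.204 ± 0.106, while CD70 and CD38, at 1.16 ± 0.227 and 1.05 ± 0.189, overlapped. The order rests on the lengths used. With the longest transcript in place of all exons CD99 came first at 96.9 ± 2.39 per kilobase in the controls and IL3RA second at 26.9 ± 0.816 (SD, n = 3).

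The spread between libraries was wider for the low genes, except for CD70 in the controls. For the 6 genes above 40 CPM the coefficient of variation within a group ran from 1.27% (CD99, knockdown) to 5.36% (CD47, knockdown), where counting alone would give 1.80% and 2.36%. For the 4 low genes it ran from 2.60% (CD70, control) to 52.2% (CLEC12A, knockdown), where counting alone would give 13.8% and 26.7%. Differences as small as those of CD33 and CD99 could therefore be called, while for CD70 a difference of the same size could not.

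Other surface antigens that have been studied as targets in myeloid leukaemia rose more often than they fell. Of 16 listed, 12 were tested, 7 rose and 2 fell, where 29.4% of all genes tested rose and 30.5% fell. The median log2 fold change was 0.32, against 0.37 for the 10 genes. FLT3, the receptor kinase mutated in this line, rose from 808 ± 10.2 to 1018 ± 29.5 CPM (SD, n = 3). IL1RAP, the coreceptor of the interleukin-1 receptor, rose from 112.0 ± 2.27 to 223 ± 8.77 CPM (SD, n = 3), or by 0.99 on the log2 scale. FOLR2 rose from 1.04 ± 0.230 to 5.13 ± 0.166 CPM and KIT from 0.269 ± 0.0905 to 4.28 ± 0.430 CPM (SD, n = 3), with 77 and 20 counts over the controls. KIT passed the filter on low counts through the knockdown libraries alone. Its call is among the 7 rises and adds no support. Over all 13 partner and relative lists together, 99 of 141 genes were tested, 40 rose and 42 fell, with a median of -0.04.

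**Figure D5:**
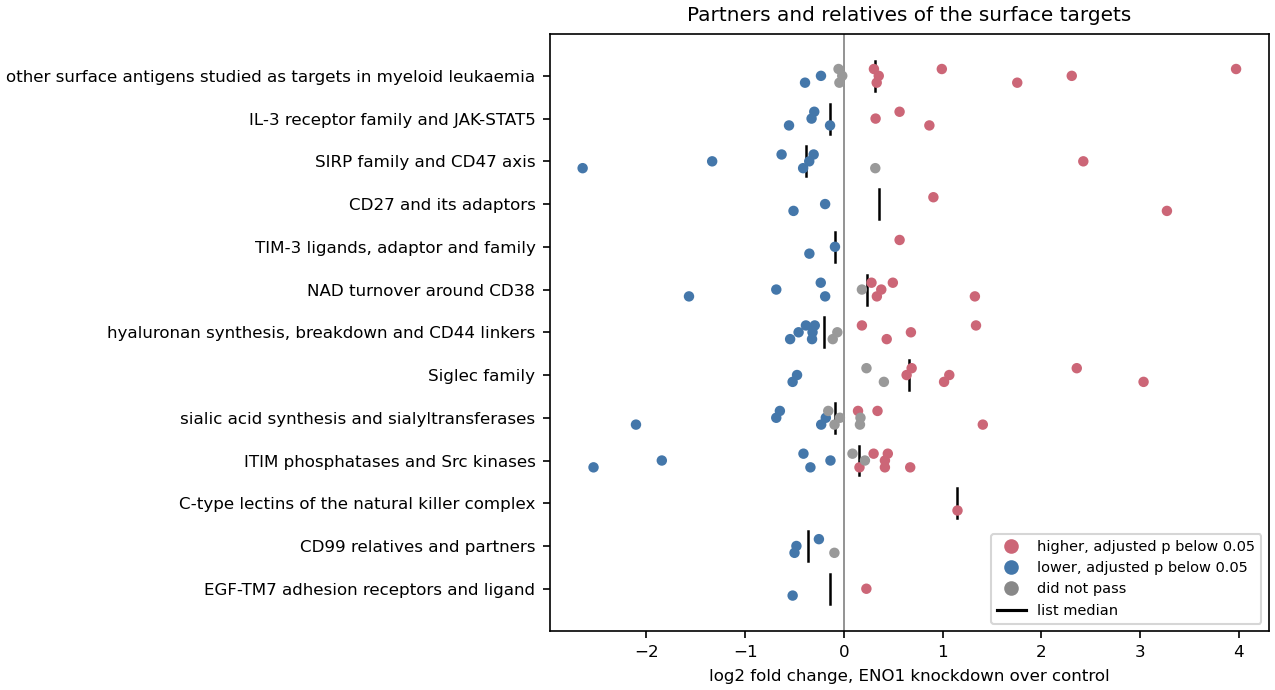
Log2 fold change, ENO1 knockdown over control, of each tested gene in the 13 lists of partners and relatives, coloured by whether it rose, fell or did not pass, with the median of each list as a black bar. Calls in both directions appear in most lists. In the SIRP family and CD47 axis 6 of 8 tested genes fell, where 30.5% of all genes tested fell.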

How the data were processed

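Total RNA was extracted with Trizol and sequenced from Illumina TruSeq libraries, per the labels' protocols. HISAT2 2.0.5 and hg38 are named in the submitters' processing notes; which read counter, annotation and strand rule were used is not given in the sources used here. Raw whole-number counts for each Ensembl gene were deposited by the authors, in 1 table with a column per library, per the file headers. Columns were matched to samples by the group and replicate number in their names. Of 23227 genes, 17862 were given a current symbol through a gene name table. The 10 members and all lists were chosen with earlier results of these data known.

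The main test was that of edgeR 4.0.16, run in R 4.3.3 (TMM, filterByExpr, robust quasi-likelihood fit and test, two-sided, Benjamini-Hochberg over the 14635 genes kept, threshold 0.05). The code was tested on simulated data. CPM use TMM-scaled sizes. Each standard error is the size of the log2 fold change over the square root of F, and 95% intervals use them with the t distribution. Intervals of ratios are exact and cover counting error only. Positions, exon lengths and overlaps are from GENCODE 29 on GRCh38. Genes sharing over 10% of their 50-base stretches with other transcripts are called uncertain. The text names the members, ENO1, at most 4 genes from any list, by smallest adjusted p, and the nearest tested genes, unless it says that a gene was chosen after its value was seen. The ratios of counts between genes were also chosen after the data were seen. Alternatives were other scalings (RLE, upper quartile, plain library size), filters, thresholds, DESeq2 1.42.0, limma-voom (limma 3.58.1), a replicate block and leaving out libraries.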

Additional observations from a re-analysis of the deposited data

How the results depend on the processing

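Of the 8 genes that rose, HAVCR2, IL3RA, CD38, CD44, ADGRE2, CD47, CD33 and CD99, all kept their direction and an adjusted p below 0.01 under every scaling, filter, test and omission of a library in which they were tested. HAVCR2, CLEC12A and CD70 were not tested with a minimum of 5 CPM in 3 libraries. CD38 met that minimum only through the knockdown libraries, where it is higher, so its call under that filter adds no support. A further requirement of at least a 2-fold difference left 953 genes higher and 521 lower among all genes, and 1 higher among the 10, since it removes CD33 (log2 fold change 0.23), IL3RA (0.83), CD47 (0.30), CD38 (0.66), CD44 (0.46), CD99 (0.21) and ADGRE2 (0.43). The fall of CLEC12A was the least secure result. It did not pass at an adjusted p below 0.01 (log2 fold change -1.01), and with single libraries left out it ran from -1.35 to -0.63, so that the number of members lower ran from 0 to 1. That number was 0 (edgeR) at the threshold of 0.01, with 1 at an unadjusted p under 0.05, and 0 with the 5 CPM filter, where CLEC12A was not tested. It was 0 without control replicate 1 and without knockdown replicate 2, with 0 at an unadjusted p under 0.05 in both (0.0571 and 0.0834 for CLEC12A), while DESeq2 and limma-voom on all libraries gave 1. With the 2 libraries that stood apart set aside, an alternative chosen after seeing the data, 8 members were higher and 1 lower.

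With the longest transcript in place of all exons, 6 of the 10 genes kept their rank in the control level. Scaling moved the median of all genes by at most 0.0532 (plain library size). Replicate numbers did not pair the libraries (correlations of same-numbered deviations 0.0029, 0.0092 and -0.023). With the replicate block, 8 members were higher and 1 lower, and 4165 genes rose and 4325 fell against 4309 and 4458. Depth limits CD70, CLEC12A and HAVCR2, with 42 to 176 counts over the 3 libraries of a group.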

Other observations

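The nearest tested gene on each side of each of the 10 genes was also read from the fit. Of these 20 neighbours, 8 rose, 3 fell and 9 did not pass, where 29.4% of all genes tested rose and 30.5% fell. The same call as the member beside them was found for 8, and whether position had a part was not tested. TNFSF9, the 4-1BB ligand gene beside CD70 in the TNF ligand cluster of chromosome 19, fell (log2 fold change -0.79, edgeR adjusted p = 1.99e-07), while TNFSF14 on the other side of CD70 did not pass (-0.10, edgeR adjusted p = 0.301). Beside CD99, ZBED1 and ARSD rose by 0.40 and 0.58 on the log2 scale. SLC25A6, a mitochondrial carrier gene 3462 bases from IL3RA, did not pass (0.04, edgeR adjusted p = 0.425), but passed without knockdown replicate 3 (0.09, edgeR adjusted p = 6.45e-04). OR7C1, an olfactory receptor gene beside ADGRE2, rose by 1.55 on the log2 scale at a low level. It had 67 counts over the controls and 169 over the knockdown libraries. VSIG10L beside CD33 passed narrowly (0.55, edgeR adjusted p = 0.0365) and was lost with DESeq2 (adjusted p = 0.0764), with no filter on low counts, without control replicates 2 or 3 and without any single knockdown library (edgeR adjusted p = 0.0574 to 0.132).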
